A study of Mus musculus with 28 samples.

Results

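The MHC class I antigen presentation genes described here are 8 genes chosen by name from 37974 identifiers of the single cell table and 36358 of the tissue table. They are the heavy chains H2-D1, H2-K1 and H2-T23, the light chain B2m, the peptide transporter genes Tap1 and Tap2, the loading chaperone Tapbp, and the transcriptional regulator Nlrc5. All 8 were found in both tables by their Ensembl identifiers. RNA of the EZ-SEZ/SVZ, the neurogenic zone that lines the lateral ventricle, was sequenced in 6 tissue samples, 3 from C57BL/6 mice aged 3 weeks and 3 from C57BL/6 mice aged 18 months. In addition, 22 single cells were picked from sorted EZ-SEZ/SVZ cells of C57BL/6 mice of 1 month and of 24 months. The younger mice gave 3 Prom1+, 2 Gfap+ and 5 Dlx2+/Dcx+ cells, and the older mice 3, 5 and 4. The labels name no transgene, no treatment and no batch. They name no animal for any sample or cell, and they attach the sorting protocol of the cells to the tissue libraries as well, whereas the study's text describes dissected tissue.

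Class I molecules display peptides from inside the cell to CD8+ T cells. The peptides are cut by the proteasome, pumped into the endoplasmic reticulum by the Tap1/Tap2 transporter and fitted, with the help of tapasin (the product of Tapbp), into a heavy chain that is held together by beta-2-microglobulin (the product of B2m). Interferons raise this whole set of genes in most tissues through Irf1 and Nlrc5, while neurons and neural progenitors of the healthy brain are known for low class I expression.

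Of the 8 genes, 6 lie on chromosome 17 of GRCm38, in and beside the mouse H2 complex. H2-K1 (chr17:33996017-34000347, minus strand), H2-D1 (chr17:35262730-35267499, plus strand) and H2-T23 (chr17:36029773-36032855, minus strand) encode heavy chains, of which H2-K1 and H2-D1 are classical and H2-T23 encodes Qa-1, a nonclassical chain that is read by receptors of NK cells. Tapbp (chr17:33915899-33929292), Tap1 (chr17:34187553-34197225) and Tap2 (chr17:34203527-34216321) are on the plus strand. B2m lies at chr2:122147686-122153083 and Nlrc5 at chr8:94434356-94527272, both on the plus strand.

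The stretch upstream of the start site holds the best known control elements of class I genes, so it is shown for the classical heavy chain H2-K1 and for the light chain B2m, which behaved differently in the tissue. The sequences are from RefSeq (GRCm38.p6) and are written 5′ to 3′ on the strand of the gene. Both lie outside GENCODE exons, and 6 of the 8 genes had a RefSeq promoter entry. Tap2 and Nlrc5 were not among them. In capitals are GGGATTCCC (an NF-kappa-B-like site), TTTCNNTTC or TTTCNNTTT on either strand (interferon response-like), TGACG (the core of the X2 box, bound by CREB and ATF factors) and ATTGG (the core of the Y box, bound by NF-Y). The H2-K1 stretch is chr17:34000359-34000458 on the minus strand, upstream of the first of 2 RefSeq starts, and the B2m stretch is chr2:122147539-122147638 on the plus strand.

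H2-K1: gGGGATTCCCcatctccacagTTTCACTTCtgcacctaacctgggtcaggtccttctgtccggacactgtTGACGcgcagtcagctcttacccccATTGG

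B2m: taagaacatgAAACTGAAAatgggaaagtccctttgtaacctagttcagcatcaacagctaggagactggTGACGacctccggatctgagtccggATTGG

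TGACG was followed by ATTGG after exactly 20 bases in H2-K1, in B2m and in H2-D1. A TGACG followed by an ATTGG on the same strand, at 15 to 25 bases, occurred in 0.353% of 32851 RefSeq promoters over the 200 bases before the start. The letters and this spacing were chosen after the sequences were seen. TGACG alone occurred in 15.7% of them and ATTGG in 29.3%. GGGATTCCC was found in H2-K1 and H2-D1 and in 0.213% of all promoters, and TTTCNNTTC, also found in both, in 5.0%. TTTCNNTTT was found in B2m, on the minus strand, and in H2-T23, and in 7.21% of all promoters. No matches in these genes overlapped each other, and all motifs were searched on both strands. Over 100 aligned bases, H2-D1 was identical to H2-K1 at 89 and H2-K1 to B2m at 44. The Tap1 window held TGACG without ATTGG, and the windows of H2-T23 and Tapbp held ATTGG without TGACG. No binding was measured in this study.

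The tissue samples held about 18400000 to 22300000 fragments, estimated from the steps between low FPKM values (fragments scaled to transcript length and to the mapped fragments of the sample), and 11733 to 12127 genes per sample reached 1 FPKM. Of the 8 genes, 7 passed the filter of at least 1 FPKM in at least 3 of the 6 samples and were tested with limma among 12287 genes on log2(FPKM + 1), with Benjamini-Hochberg adjusted p-values over all of them. The median log2 fold change of all genes tested, 18 months minus 3 weeks, was 0.09. A gene is called higher or lower here at an unadjusted p under 0.05 and a log2 fold change past 1. In tissue, fewer cells of a type and less RNA per cell cannot be told apart.

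In the tissue the 3 heavy chains rose with age, and the light chain was not called in either direction. H2-D1, H2-K1 and H2-T23 were 3.30, 3.76 and 3.83 times as high at 18 months as at 3 weeks by mean FPKM, the transporter genes Tap1 and Tap2 stood 2.62 and 2.05 times as high, and Tapbp 1.35 times. B2m, the most abundant of the 8, had a ratio of 0.930. By the limits above, 3 of the 7 genes tested were called higher and none lower, where 1.83% of all genes tested were called higher and 2.07% lower. At an adjusted p under 0.05, 4 of the 7 (the heavy chains and Tap2) were higher, against 2.51% of all genes. The median log2 fold change of the 7 was 0.77.

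**Figure D1:**
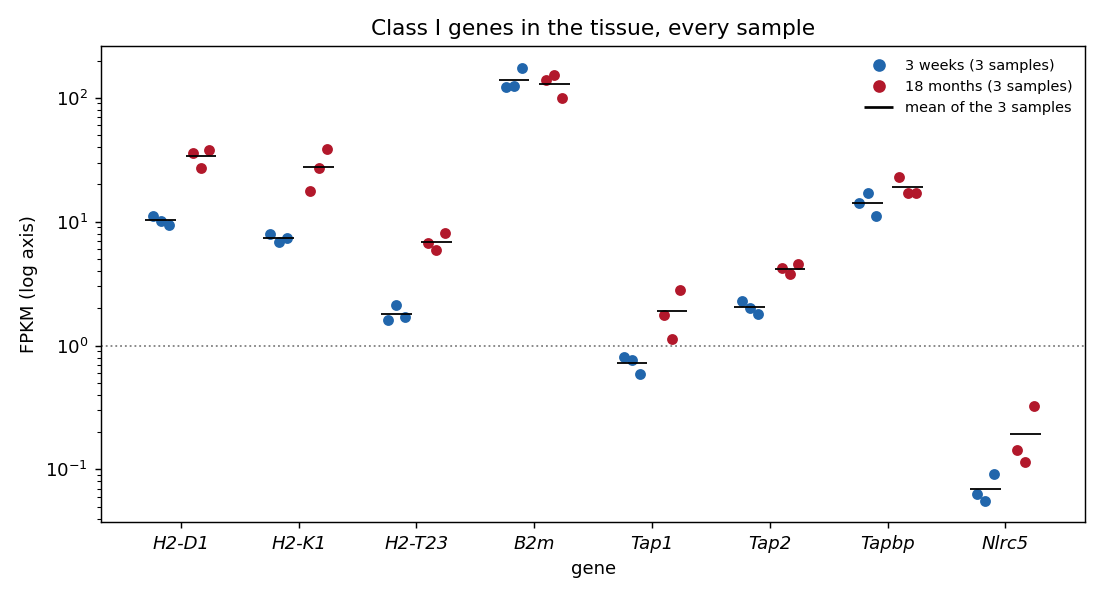
FPKM of each gene on a log axis in the 3 tissue samples of 3 weeks (blue) and the 3 of 18 months (red), with black bars at the means and a dotted line at 1 FPKM. The 3 heavy chains are separated by age, B2m is mixed between 99.4 and 175 FPKM, and Nlrc5 stays below 1 FPKM in every sample.

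H2-D1 measured 36.0, 27.4 and 38.1 FPKM in the 18-month samples and 11.2, 10.102 and 9.43 FPKM in the 3-week samples. Every old sample was thus above every young one, and the lowest old value was well clear of the highest young value. The log2 fold change was 1.62 ± 0.16 (SE, n = 3 per age) with an adjusted p of 0.0082 (limma, Benjamini-Hochberg).

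H2-K1 measured 17.8, 27.0 and 38.4 FPKM at 18 months and 7.94, 6.82 and 7.39 FPKM at 3 weeks. The ages did not overlap, but the old samples were spread more widely (SD 10.3) than the young (SD 0.561). Its log2 fold change was 1.72 ± 0.28, with an adjusted p of 0.0317. The old sample that was lowest for H2-K1 was not the lowest for H2-D1. The ratio of H2-D1 to H2-K1 was 2.02 in that sample, against 1.01 and 0.992 in the other old samples and 1.28 to 1.48 in the young.

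H2-T23, the gene of Qa-1, measured 6.75, 5.87 and 8.05 FPKM at 18 months and 1.60, 2.12 and 1.69 FPKM at 3 weeks. It had the largest ratio of means of the 8 genes and the same order of the old samples as H2-D1. The log2 fold change was 1.49 ± 0.15, with an adjusted p of 0.00987. Heavy chain genes resemble each other, and of the 50-base words in the longest coding transcript, 28.8% were shared exactly with other annotated genes for H2-T23, 14.3% for H2-D1 and 8.79% for H2-K1. How fragments of shared sequence were assigned is not given in the sources used here, so the split among heavy chains is uncertain. No 50-base word of B2m or Nlrc5 was shared.

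B2m measured 139, 153 and 99.4 FPKM at 18 months and 122, 124 and 175 FPKM at 3 weeks. The ages overlapped, and both the highest and the lowest samples ran against the direction of the heavy chains, with the highest value in a young sample and the lowest in an old one. The log2 fold change was -0.11 ± 0.22, its 95% interval ran from -0.66 to 0.45, and the adjusted p was 0.811. The lower ends of the 95% intervals of H2-D1 (1.23), H2-K1 (1.03) and H2-T23 (1.11) were all above that upper end. B2m lies wholly within the antisense gene Patl2, which was at 0.0191 to 0.0610 FPKM in the tissue.

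The relation between light and heavy chains was followed within each sample, in values added after the data were examined. The summed FPKM of H2-D1, H2-K1 and H2-T23 was 60.6, 60.2 and 84.5 at 18 months and 20.7, 19.0 and 18.5 at 3 weeks. B2m stood 2.30, 2.54 and 1.18 times as high as that sum in the old samples and 5.88, 6.49 and 9.48 times as high in the young samples. Thus B2m exceeded the 3 heavy chains together in all 6 samples, by less in every old sample than in any young one. Against the sum of all heavy chains listed, B2m was lower in the third old sample (99.4 against 104.7 FPKM). The mean ratio of B2m to the sum of the 3 chains was 2.004 ± 0.726 (SD) at 18 months and 7.28 ± 1.93 at 3 weeks. The direction of the sum follows from the 3 chains, each higher in every old sample, and that of the ratio from the sum and the narrower range of B2m, so neither is given a test.

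**Figure D2:**
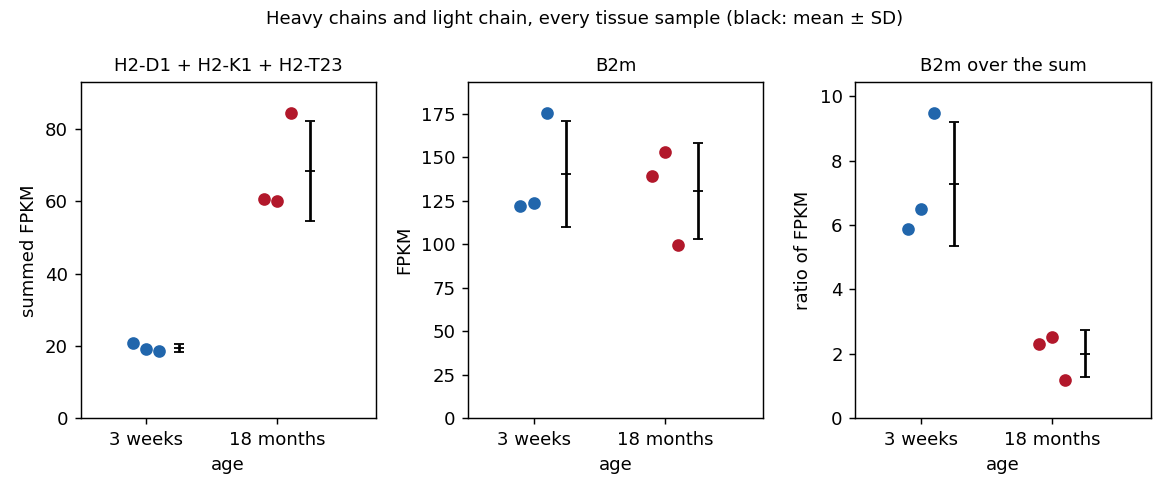
Summed FPKM of the 3 heavy chains, FPKM of B2m, and the ratio of B2m to the sum, for the 3 tissue samples of each age (points) with mean ± SD in black and axes from 0. The sum lies between 18.5 and 20.7 at 3 weeks and between 60.2 and 84.5 at 18 months, B2m overlaps, and the ratio falls in every old sample below every young one.

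Among the transporter genes, Tap2 measured 4.20, 3.75 and 4.57 FPKM at 18 months and 2.29, 2.03 and 1.81 FPKM at 3 weeks. The ages did not overlap. The log2 fold change of 0.77 ± 0.13 had an adjusted p of 0.0333 but was under the fold limit, so Tap2 was not called. Tap1 measured 1.76, 1.13 and 2.79 FPKM at 18 months and 0.809, 0.771 and 0.594 FPKM at 3 weeks. It passed the filter only through the old samples, which alone reached 1 FPKM, so that its lack of overlap was fixed by the filter. Its log2 fold change was 0.71 ± 0.22, with an adjusted p of 0.138, and it was called only with a pseudocount of 0.1, at 1.20. The ratio of Tap2 to Tap1, the partners of a heterodimer, was 1.63 to 3.33 at 18 months and 2.63 to 3.04 at 3 weeks.

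Tapbp measured 23.1, 16.95 and 16.95 FPKM at 18 months and 14.2, 16.9 and 11.1 FPKM at 3 weeks. Although no old sample was below a young one, 2 old samples and 1 young sample were nearly level. The log2 fold change was 0.41 ± 0.20, with a 95% interval from -0.09 to 0.91 and an adjusted p of 0.278. Tapbp shares 3422 bases of its span with Zbtb22 on the same strand, which was at 1.23 to 13.1 FPKM.

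Nlrc5, the activator of class I promoters, was below 1 FPKM in all 6 samples and was not tested. It measured 0.143, 0.114 and 0.322 FPKM at 18 months and 0.063, 0.056 and 0.091 FPKM at 3 weeks. These levels are low, about 9 to 54 fragments per sample over its longest coding transcript by the estimated depth, with the old samples all above the young. With no filter, its log2 fold change was 0.15 ± 0.07, with an adjusted p of 0.340 over 25147 genes.

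Of the 7 genes tested 6, all but B2m, had every old sample above every young one, as had 20.9% of the genes tested. Among the 6 of the 8 genes that reached 1 FPKM in all 6 samples, 5 did, against 21.0% of such genes. Since FPKM is scaled by length, the order of levels can be read across genes. At 3 weeks the means were 140 for B2m, 14.1 for Tapbp, 10.2 for H2-D1, 7.38 for H2-K1, 2.04 for Tap2, 1.8 for H2-T23, 0.725 for Tap1 and 0.0698 for Nlrc5. At 18 months H2-D1 (33.8) and H2-K1 (27.7) were above Tapbp (19.0), and H2-T23 (6.89) was above Tap2 (4.17). The samples of Tapbp and H2-D1 and those of Tap2 and H2-T23 overlapped at 3 weeks, and those of H2-D1 and H2-K1 and of H2-K1 and Tapbp at 18 months, so the ranges of these neighbours give no order. Within each 3-week sample Tapbp was above H2-D1, whereas the order within the other 3 pairs differed between samples.

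The wider pathway was followed in lists of other genes. Of 20 other class I heavy chains 5 were tested and none was called, with a list median of 0.55. The largest differences were those of the nonclassical genes H2-T22 (log2 fold change 0.90 ± 0.16, adjusted p 0.0429), H2-Q4 (0.88 ± 0.20, adjusted p 0.0741), H2-T10 (0.55 ± 0.21, adjusted p 0.188) and H2-T24 (-0.21 ± 0.23, adjusted p 0.603). In 4 of the 5, H2-T24 being the exception, every old sample was above every young one, as in 20.9% of all genes tested. Among the 4, H2-Q2 differed by only 0.13 ± 0.10 (adjusted p 0.47). The summed FPKM of all heavy chains listed was 73.9 to 104.7 at 18 months and 26.4 to 30.1 at 3 weeks. Of 9 class I-like chains 3 were tested and none was called, namely Mr1 at 0.52 ± 0.47, Hfe at 0.23 ± 0.15 and Cd1d1 at -0.44 ± 0.17.

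Of 12 genes of the immunoproteasome and of the cytosolic peptide supply 11 were tested. Psmb8 and Psmb9, the interferon-inducible catalytic subunits encoded beside Tap1 and Tap2, were the 2 genes called, both higher. Psmb8 measured 4.40, 3.84 and 5.83 FPKM at 18 months and 1.31, 1.49 and 1.21 FPKM at 3 weeks, with a log2 fold change of 1.27 ± 0.16 and an adjusted p of 0.017. Psmb9 measured 1.84, 2.03 and 2.14 FPKM against 0.148, 0.219 and 0.602 FPKM, with 1.20 ± 0.15 and an adjusted p of 0.0173. Like Tap1, Psmb9 passed the filter only through the old samples, and it overlaps Tap1 on the opposite strand by 212 bases. The list median was 0.09, the same as that of all genes.

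Of 10 genes of peptide loading and trimming 7 were tested, with a list median of 0.33. Canx, the gene of calnexin, a chaperone of new glycoproteins in general and of free heavy chains, was the 1 gene called. It measured 83.4, 106 and 123 FPKM at 18 months and 39.6, 38.2 and 29.9 FPKM at 3 weeks, with a log2 fold change of 1.50 ± 0.19 and an adjusted p of 0.0163. Calr, the gene of the calreticulin that takes part in the loading complex itself, stood at -0.19 ± 0.11 with an adjusted p of 0.357.

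Of 23 regulators of class I transcription 19 were tested and none was called, with a list median of 0.04. Among the larger differences were Irf1 at 0.84 ± 0.14 (adjusted p 0.0327), Rfxap at -0.66 ± 0.58 (adjusted p 0.534) and Irf9 at 0.57 ± 0.22 (adjusted p 0.192). Irf1 measured 3.08, 4.17 and 3.69 FPKM at 18 months and 1.58, 1.43 and 1.78 FPKM at 3 weeks, with no overlap. Of 30 interferon response genes 17 were tested, with a list median of 0.58. Xaf1 was called higher at 1.40 ± 0.19 (adjusted p 0.0197), and so was Ifi27l2a at 1.28 ± 0.38, whose adjusted p was 0.123.

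Class II genes, which present peptides taken up from outside the cell, were 12, of which 6 were tested and none was called. Ctss, the gene of a lysosomal protease that cuts the class II invariant chain, differed most of those tested at 0.95 ± 0.12 (adjusted p 0.0176), followed by H2-DMb2 at 0.61 ± 0.19, H2-Ab1 at 0.28 ± 0.30 and H2-Oa at 0.19 ± 0.13. Below the filter, H2-Aa, H2-Eb1 and H2-Ob were higher in every old sample, and H2-Eb2 was listed at 0 in all. H2-Aa was at 0.784 to 1.27 FPKM in old and 0.085 to 0.184 FPKM in young samples. None of the 13 receptors for class I passed the filter. Their summed FPKM was 1.13 to 1.37 at 18 months and 0.79 to 0.99 at 3 weeks.

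**Figure D3:**
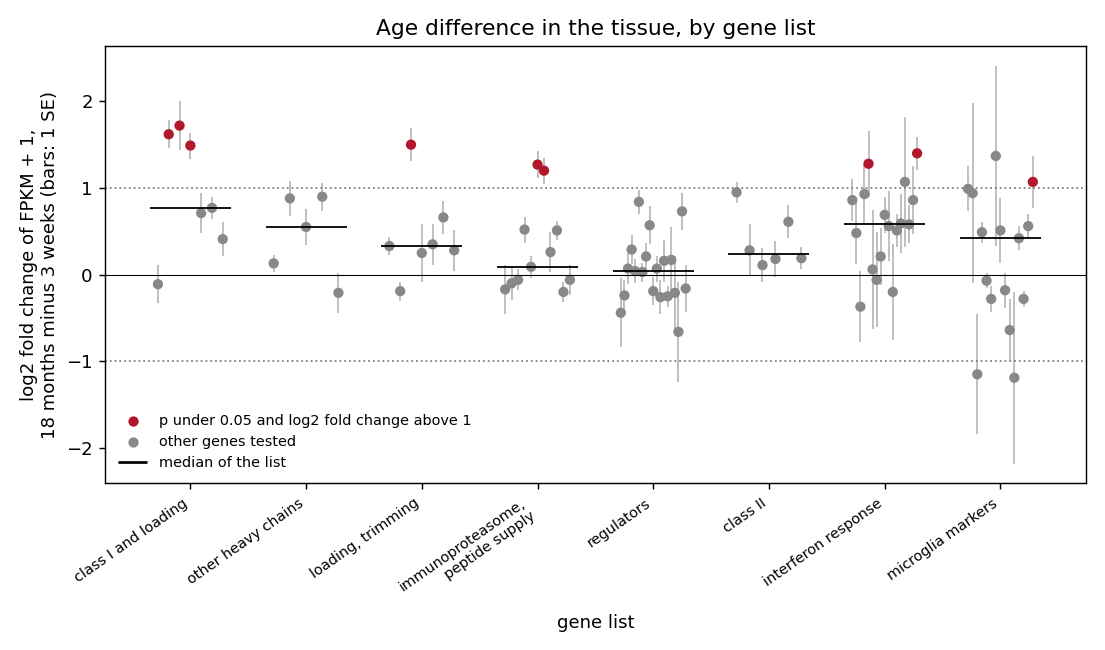
Log2 fold change of FPKM + 1, 18 months minus 3 weeks, for each gene tested in 8 lists, with bars of 1 SE, black lines at list medians and dotted lines at 1 and -1. Red points mark genes called higher, namely 3 of the class I and loading genes (H2-D1, H2-K1 and H2-T23), Canx, Psmb8, Psmb9, Xaf1, Ifi27l2a and the microglial gene Tyrobp.

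Marker genes of other cell types were read beside these results. Of 18 microglia markers 15 were tested, with a list median of 0.42, and 1 was called, Tyrobp at 1.07 ± 0.30 (adjusted p 0.105). The summed FPKM of the list was 415 to 490 at 18 months and 357 to 487 at 3 weeks, so that the ages overlapped. In this sum C1qa and C1qb varied widely among the old samples (111 ± 71.2 and 69.6 ± 72.9 FPKM, SD). Singly, 8 of the 15 had a log2 fold change above 0. Every old sample was above every young one in 6 of the 15, against 20.9% of all genes tested. Among these was Aif1, the gene of Iba1, at 9.34 against 4.23 FPKM (log2 fold change 0.99 ± 0.26, adjusted p 0.0909). Tmem119 and Fcrls, both at -0.28, were the 2 with every old sample below. The summed endothelial markers were lower in every old sample (47.2 to 52.0 against 62.1 to 78.7), with none of 10 tested genes called. Of 15 T and NK cell markers, 2 were tested and none was called. The summed list, of which Cd4 made up most, was 34.6 to 49.8 at 18 months and 43.5 to 49.9 at 3 weeks. Below the filter, in values read after the data were seen, Cd2, Cd3e, Cd3g, Cd8a, Cd8b1, Gzmk and Nkg7 were higher in every old sample. All of these stayed under 1 FPKM, and Cd247 and Trac overlapped between ages. The T cell gene Cd3e was at 0.125 to 0.388 FPKM in old and 0.033 to 0.038 FPKM in young samples. The summed oligodendrocyte markers were at 4120 to 4771 FPKM at 18 months and 20642 to 22791 at 3 weeks, with 4 of the 9 genes tested called lower. Mbp made up most of the 3-week sums, with a mean of 15060 FPKM against 1420 FPKM at 18 months. The summed neuroblast markers (267 to 272 against 417 to 470) and stem cell markers (48.9 to 93.3 against 95.5 to 144) were also lower in every old sample, each with 2 of 8 genes called lower. In the stem cell sum Sox2 varied widely within each age (13.6 ± 23.6 FPKM, SD, at 18 months and 32.8 ± 28.8 at 3 weeks). The summed ependymal markers were higher in every old sample (187 to 221 against 142 to 175), with none of 5 called. The sums of pericyte, astrocyte, choroid plexus and border macrophage markers overlapped between ages. The part of any of these cell types in the change of the heavy chains was not tested.

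The genes with the pattern most like the mean of the 7 tested class I genes over the 6 tissue samples, by Pearson r of log2(FPKM + 1), were Nek11 (r = 0.9988), Ets2 (r = 0.9974), Sv2c (r = 0.9974), Lypd6b (r = 0.9971) and Nsf (r = 0.997). The points share 2 age groups, and r is a description. With the same mean, of which each is a part, H2-D1 had an r of 0.996, H2-T23 0.995, Tap2 0.991, H2-K1 0.954, Tap1 0.902, Tapbp 0.701 and B2m -0.343.

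The 22 cells came from a gate on cell size and complexity and were kept, by the study's text, for qPCR signal of stem and progenitor cell genes, Prom1, Gfap, Dlx2 and Dcx among them. They are thus a selected set and do not survey the cells of the niche. Without named animals each subpopulation and age counts as 1 sample, so values are given with no test. The Gfap+ cells had Gfap at 48.7 to 194 FPKM, but also oligodendrocyte markers, such as Mbp at 6346 to 19572 FPKM. The Prom1+ and Dlx2+/Dcx+ cells had the genes of their names, which that qPCR had tested, above 1 FPKM in every cell. The table held 4398 to 6626 genes above 1 FPKM per cell. Actb, used by every cell, was listed at 0 in each of the 6 Prom1+ cells and was at 10900 to 29740 FPKM in the others, so that an exact 0 here can be a failed estimate. Ptprc, a marker of all leukocytes, and the endothelial Cldn5 were listed at 0 in all 22 cells. Cx3cr1, a receptor gene of microglia, exceeded 1 FPKM in 4 Gfap+ cells of 7, the highest being 4.07 FPKM, and in 1 Dlx2+/Dcx+ cell at 1.22 FPKM. The whole microglia list summed to 0.434 to 4.51 FPKM in Prom1+, 1.48 to 122 in Gfap+ and 0.622 to 186 in Dlx2+/Dcx+ cells, and the endothelial list to at most 25.1 FPKM in any cell.

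**Figure D4:**
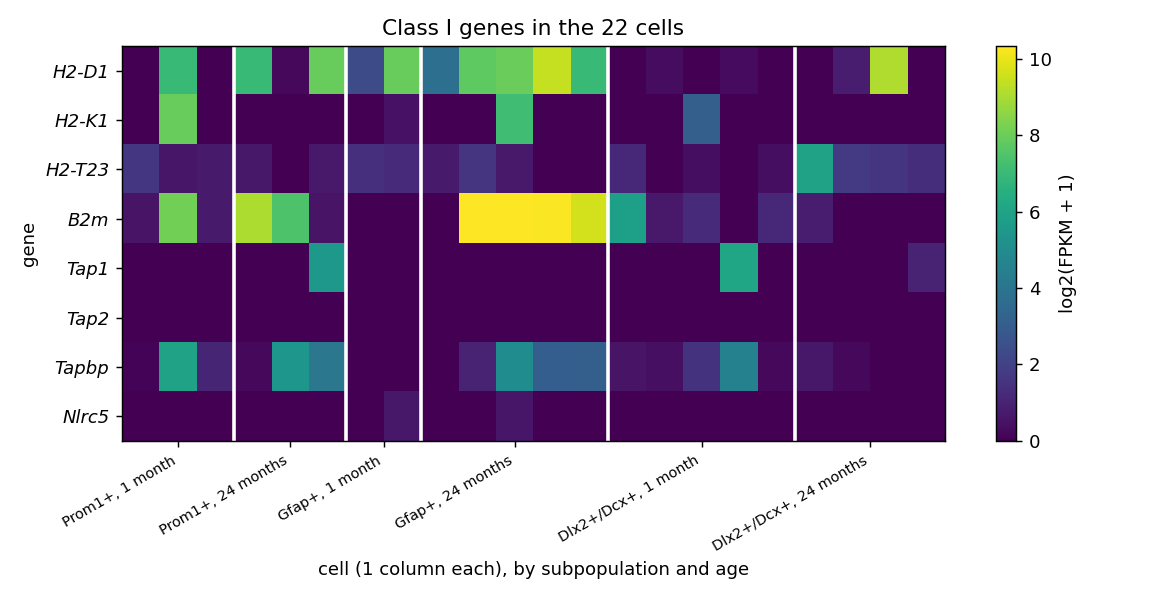
Color scale of log2(FPKM + 1) for each of the 8 genes (rows) in each of the 22 cells (columns), with white lines between subpopulations and ages. H2-D1 is present in all 7 Gfap+ cells, B2m in 4 of the 5 of 24 months, and Tap2 is listed at 0 throughout.

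H2-D1 was above 1 FPKM in 11 of 22 cells and above 0 in 15. All 7 Gfap+ cells had it, at 4.11 and 244 FPKM at 1 month and at 12.5, 215, 253, 689 and 127 FPKM at 24 months. The Gfap+ ages overlapped, with the higher 1-month cell above 3 of the 5 older ones. In Prom1+ cells it was at 0, 123 and 0 FPKM at 1 month and 124, 0.170 and 242 FPKM at 24 months. Among 9 Dlx2+/Dcx+ cells only 1, of 24 months, was above 1 FPKM, at 542 FPKM.

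H2-K1, the other classical heavy chain, was above 1 FPKM in 3 cells and listed at 0 in 18. It was at 245 FPKM in a 1-month Prom1+ cell, at 141 FPKM in a 24-month Gfap+ cell and at 7.76 FPKM in a 1-month Dlx2+/Dcx+ cell. These are 1 cell in each subpopulation. The Prom1+ cell was also the only cell of its group with H2-D1.

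H2-T23 was above 0 FPKM in 17 of 22 cells, above 1 FPKM in 9 and above 5 FPKM in 1. In Dlx2+/Dcx+ cells it was at 60.4, 2.36, 1.95 and 1.59 FPKM at 24 months, and at 1.23, 0, 0.299, 0 and 0.313 FPKM at 1 month. Every older cell of this subpopulation was above every younger one, although 3 of the 4 older cells stood near 2 FPKM. The difference of mean log2(FPKM + 1) was 2.27, and 1.17 without the cell at 60.4 FPKM. In Gfap+ cells H2-T23 was at 1.67 and 1.44 FPKM at 1 month and 0 to 1.97 FPKM at 24 months, and in Prom1+ cells it did not exceed 2.08 FPKM.

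B2m was above 1 FPKM in 10 of 22 cells. The 24-month Gfap+ cells held it at 0, 1286, 1267, 1240 and 782 FPKM, whereas it was listed at 0 in both 1-month Gfap+ cells. These 4 cells had the highest B2m of all 22, yet with 1 older cell at 0 the ages overlapped. The difference of mean log2(FPKM + 1) was 8.11, and between 7.55 and 10.13 when 1 of the older cells was left out. Leaving out either 1-month cell could not move it, since both were at 0. The 4 cells with B2m also had summed T and NK cell markers of 1.67 to 3.84 FPKM, nearly all from Cd3d, and summed endothelial markers of 0.286 to 1.23 FPKM, mostly from Tie1. Both sums were 0 in the other 3 Gfap+ cells, and Cd3e, Cd3g, Trac, Pecam1 and Cldn5 were listed at 0 in all 7. The part of these markers in the B2m difference was not tested. Prom1+ cells held B2m at 0.452, 280 and 0.669 FPKM at 1 month and 534, 171 and 0.464 FPKM at 24 months. Dlx2+/Dcx+ cells were lower, with 55.5 FPKM in 1 cell of 1 month and at most 1.39 FPKM in the other 8.

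Since a class I molecule needs both chains, they were also counted together. B2m and H2-D1 were both above 1 FPKM in 6 cells, B2m alone in 4, H2-D1 alone in 5, and neither in 7. The 6 cells with B2m and H2-D1 were 4 Gfap+ cells, all of 24 months, and 2 Prom1+ cells, while no Dlx2+/Dcx+ cell had B2m with H2-D1. At least 1 of H2-D1, H2-K1 and H2-T23 was above 1 FPKM in 17 cells, and together with B2m in 8. The 2 cells that any heavy chain adds were Dlx2+/Dcx+ cells of 1 month, 1 with B2m at 55.5 and H2-T23 at 1.23 FPKM and 1 with B2m at 1.39 and H2-K1 at 7.76 FPKM. Over the 22 cells r with B2m was 0.518 for H2-D1, 0.507 for Tapbp, 0.376 for H2-K1 and -0.266 for H2-T23, as a description of cells that share subpopulations.

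Of the loading genes, Tapbp was above 1 FPKM in 10 of 22 cells. It reached 60.8 FPKM in a 1-month Prom1+ cell and 31.5 FPKM in a 24-month Gfap+ cell, and it was listed at 0 in both 1-month Gfap+ cells. Tap1 was above 1 FPKM in 3 cells, at 68.8 and 1.05 FPKM in Dlx2+/Dcx+ cells of 1 and 24 months and at 44.7 FPKM in a Prom1+ cell of 24 months. Tap2, which was at 1.81 to 4.57 FPKM in every tissue sample, was listed at 0 in all 22 cells. Nlrc5 was above 0 in only 2 cells, both Gfap+, at 0.599 FPKM at 1 month and 0.541 FPKM at 24 months.

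Across genes, age differences in these cells were common. Of the 6 class I genes above 1 FPKM in at least 3 cells, 4 had means that differed by more than 1 (log2) between ages in Prom1+ cells, where 46.1% of 11332 genes did. In Gfap+ cells 4 of the 6 did, against 49.2%, and in Dlx2+/Dcx+ cells 4 of the 6, against 43.7%. The ages did not overlap for 0 of the 6 in Prom1+ cells (8.0% of all genes), 0 in Gfap+ cells (5.89%) and 1 in Dlx2+/Dcx+ cells, H2-T23 (1.72%). All 4 differences past 1 in Gfap+ cells (H2-D1, H2-K1, B2m and Tapbp) were upward at 24 months, where 29.6% of all genes were past 1 upward and 19.6% downward. In Prom1+ cells H2-D1, B2m and Tap1 were upward and H2-K1 downward, where 2498 of the 11332 genes were past 1 upward and 2724 (24.0%) downward. In Dlx2+/Dcx+ cells H2-D1 and H2-T23 were upward and B2m and Tapbp downward, against 16.6% and 27.1%. The direction reversed for H2-D1 and H2-K1 in Gfap+ cells when 1 cell was left out, with lowest values of -0.75 and -0.25. Among differences within 1, that of Tapbp in Prom1+ cells, 0.89, ran from -0.24 to 2.69 and those of Nlrc5 in Gfap+ cells and Tap1 in Dlx2+/Dcx+ cells also changed sign. The H2-D1 difference in Prom1+ cells, 2.72, ran from 1.28 to 5.13. With 1 cell left out, the differences of H2-K1 and Tap1 in Prom1+ cells went to 0, and that of H2-D1 in Dlx2+/Dcx+ cells went from 2.34 to 0.14. Those of B2m in Prom1+ cells (2.54 to 0.85) and of B2m (-1.58 to -0.57) and Tapbp (-1.22 to -0.45) in Dlx2+/Dcx+ cells also came within 1.

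The genes most like B2m over the 22 cells were Eef2kmt (r = 0.838), Tstd2 (r = 0.732), Bcl2l2 (r = 0.724), 1810008B01Rik (r = 0.723) and Crybg3 (r = 0.723). Of the immunoproteasome genes that were called in the tissue, Psmb8 was above 1 FPKM in 1 of 22 cells, at 1.07 FPKM, and Psmb9 was not found by name among the genes of the cells. Canx was above 1 FPKM in 21 of 22 cells. Of the 12 class II genes, H2-DMb2, a subunit of the class II peptide exchange factor, was above 1 FPKM in 4 of 22 cells, at up to 6.03 FPKM, and Ctss in 1, at 1.746 FPKM. The others, H2-Aa, H2-Ab1 and Cd74 among them, did not exceed 1 FPKM in any cell.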

How the data were processed

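The authors deposited FPKM values, 1 column per tissue sample and per cell. According to the study's methods, HISAT2 placed the reads of the cells on GRCm38 and StringTie estimated expression. The labels also name featureCounts. The versions of these tools, the annotation release and any scaling between samples are not given in the sources used here. Low tissue FPKM values rest on few fragments, and shared sequence between heavy chains can move fragments between genes. The members and gene lists were chosen with earlier results of these data known.

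Identifiers were matched to GENCODE M21 (GRCm38), for 99.2% of the tissue and 86.7% of the cell table. The positions listed in the cell table overlapped GRCm38 for none of the 8 genes and were not used. Tissue genes with at least 1 FPKM in at least 3 of 6 samples were tested for age with limma 3.58.1 under R 4.3.3, using lmFit and a trended eBayes on log2(FPKM + 1). No fragment counts were used here. The calling limits, p under 0.05 and a log2 fold change past 1, are those of the study's methods. The labels do not say that samples came from separate animals, so p-values measure the spread between these samples, which may be technical. For depth, the worth of 1 fragment was fitted in single-transcript genes of 300 bases or more, where 59.7% to 60.8% of low values lay within 0.02 of a whole multiple.

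Cells were described in Python 3.11.15 (pandas 2.3.3, numpy 2.4.6, and scipy 1.17.1 for intervals), as means of log2(FPKM + 1) per age and cells above 1 FPKM. Figures used matplotlib 3.10.9. Named besides the 8 genes are the genes called in each list or, where none was, those of largest change up to 4, and the 5 genes most like the members by r. Genes named outside this rule, such as Calr, Cd3e, Cx3cr1 and the cell type markers, were chosen after their values were seen. Some genes that the rule names are not reported here. Alternatives were a pseudocount of 0.1, no filter, TPM scaling, quantile normalization, the replicate number as a block, adjusted p, each sample or cell left out, medians, and thresholds of 0 and 5 FPKM. Leaving out cells and the sums and ratios of chains were added after the data were examined.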

Additional observations from a re-analysis of the deposited data

Results flagged for a closer look

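Of 17 groups of 4 or 5 cells in which a gene varied, 10 held 1 cell far from the rest of its group on log2(FPKM + 1). For normally spread values chance sets a cell apart in about 1 group in 20, a rate that does not hold for groups of which most cells are listed at 0. In 7 of the 10 the other cells were all under 1 FPKM, where any single expressing cell stands apart. In Dlx2+/Dcx+ cells of 24 months these were H2-D1 at 542 FPKM, H2-T23 at 60.4 FPKM, Tap1 at 1.05 FPKM and B2m at 0.753 FPKM. In Dlx2+/Dcx+ cells of 1 month they were B2m at 55.5 FPKM, Tap1 at 68.8 FPKM and H2-K1 at 7.76 FPKM. In Gfap+ cells of 24 months they were H2-K1 at 141 FPKM, Nlrc5 at 0.541 FPKM and B2m, where the cell that stood apart was the 1 listed at 0 beside 4 cells of 782 to 1286 FPKM. The same Gfap+ cell of 24 months stood apart for both H2-K1 and Nlrc5.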

How the results depend on the processing

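The heavy chains H2-D1, H2-K1 and H2-T23 were called higher at 18 months under every alternative run in the tissue. Their log2 fold changes stayed between 1.39 and 1.99. The number of the 8 genes called higher was 3 throughout, except 4 with a pseudocount of 0.1 (which adds Tap1) and 4 with adjusted p and no fold limit (which adds Tap2). The number of all genes called was 479, 765 with a pseudocount of 0.1 and 279 with adjusted p and the same fold limit. With each sample left out in turn it was 458 to 621. The median of the genes tested, 0.77, became 1.20 with a pseudocount of 0.1, a scale on which low genes count for more, and was 0.711 to 0.911 with 1 sample left out. B2m ranged from -0.23 to 0.077 with 1 sample left out and changed sign, to 0.077 without the third 18-month sample and to 0.065 without the third 3-week sample, with unadjusted p of 0.719 and 0.773 in limma. With the replicate block, 3 of the 8 genes and 505 of all genes were called. The replicate numbers did not pair the samples, since deviations of same-numbered samples correlated at -0.096, -0.011 and -0.098. Of 248 alternatives for age differences in cells 5 moved by more than 1 SD, 4 of them with a pseudocount of 0.1. The SD meant is that between cells of the age with the larger spread, up to 4.585 (H2-K1 in Prom1+ cells). Genes listed at 0 in every cell of a subpopulation could not move. The count is therefore no measure of stability. By medians in place of means, the differences in Prom1+ cells went from 2.72 to 6.96 for H2-D1, from 2.54 to 6.69 for B2m, from 0.89 to 3.06 for Tapbp, from -2.65 to 0 for H2-K1 and from 1.84 to 0 for Tap1. In Gfap+ cells H2-K1 went from 1.18 to -0.25. In Dlx2+/Dcx+ cells H2-D1 went from 2.34 to 0.39, H2-T23 from 2.27 to 1.28 and Tapbp from -1.22 to -0.44. Of 22 cells H2-T23 was above 1 FPKM in 9, above 0 in 17 and above 5 FPKM in 1, and Tapbp in 10, 17 and 7. Nlrc5 was above 0 in 2 cells and above 1 FPKM in 0. The depth of the cells was not estimated here. In the tissue Nlrc5 rested on about 9 to 54 fragments per sample and Tap1 on 34 to 184.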
